A study of Mus musculus with 2 samples.

Results

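The cells described here were dendritic cells of the mouse mitral valve that carried RNA of the chemokine receptor Ccr7, and 99 of 4313 kept cells belonged to them. Members were chosen cell by cell from the deposited counts of unique molecular identifiers (UMIs, 1 per captured RNA molecule). Kept cells had between 200 and 5000 genes detected, with mitochondrial genes giving no more than 10% of the UMIs. A member further held at least 1 UMI of Ccr7 and at least 4 UMIs of Ccr7, Ccl22 and Fscn1 summed. Kept cells with 10 or more UMIs of the complement genes C1qa, C1qb and C1qc, or with any UMI of Cd3e, Cd79a, Xcr1 or Clec9a, were left out. These are genes of macrophages, T cells, B cells and the cross-presenting type of dendritic cell. The cells came from valve leaflets of 12-week-old mice on the C57BL/6J background. The WT library came from Fbn1+/+ littermates, and the mgR library came from mice homozygous for the hypomorphic mgR allele of Fbn1, a germline allele whose effect is not limited to a cell type. After enzymatic digestion and a sort for viable cells, each genotype gave 1 library. With 1 library per genotype no difference between genotypes could be tested, and all intervals below cover counting error only.

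Dendritic cells take up antigen in tissue, and after a maturation stimulus they display it to T cells. Maturation brings the receptor Ccr7, with which the cell follows the chemokines Ccl19 and Ccl21 into lymphatic vessels, and the actin-bundling protein fascin, the product of Fscn1, which supports dendrites and motility. Mature dendritic cells also secrete Ccl17 and Ccl22, the ligands of Ccr4 on T cells, and raise costimulatory ligands while they give up antigen uptake. The lectins Cd209a and Mgl2, in contrast, are receptors of antigen-sampling dendritic cells.

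The label of mature dendritic cells was met in part. All 99 cells carried Ccr7 by the rule, yet Fscn1 UMIs were found in only 3 of 24 WT members and 15 of 75 mgR members. Cd209a or Mgl2 UMIs, in contrast, were found in 20 WT and 54 mgR members. None of the 74 cells with Cd209a or Mgl2 held a Fscn1 UMI. This count of 0 allows up to 15% of such WT cells and 5.56% of such mgR cells to hold a Fscn1 UMI at this depth, which limits detection and not expression. The cells with Cd209a or Mgl2 had medians of 8236.5 UMIs in WT and 10992 in mgR, against 7670 and 7622 in the members without the lectins. The part of depth in these counts was not tested. As background, Fscn1 was in 0 of 90 WT and 0 of 152 mgR T cells, with medians of 4145 and 5097.5 UMIs, and in 5 of 215 WT and 12 of 1527 mgR C1q macrophages. The members are therefore called Ccr7 dendritic cells here, those with at least 1 UMI of Cd209a or Mgl2 are called lectin-positive, and the 4 WT and 21 mgR cells with neither are called lectin-negative. This division was made after the values had been seen, so it is described without a test. Detection alone sets it, and a lectin-negative cell may still express the lectins below the depth of the library.

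The members carried genes of conventional dendritic cells that the rule did not use. The class II gene H2-Aa was detected in 24 of 24 WT and 74 of 75 mgR members. This detection is given without a level in macrophages, so by itself it does not set the members apart from them. The transcription factor gene Zbtb46, which marks conventional dendritic cells, was found in 14 WT members (132 CPM, the UMIs of a gene per 1000000 UMIs summed over the cells) and 34 mgR members (68.1 CPM), against 2.91 and 3.68 CPM in the C1q macrophages. The cytokine receptor gene Flt3 reached 44.0 and 42.6 CPM, against 3.64 and 0.900 CPM in these macrophages. Of the markers of other cells, those of melanocytes were at 0 UMIs in all members, and those of mast cells, neutrophils, T cells and B cells summed to at most 9.79 CPM in WT and 28.0 CPM in mgR members. Markers of monocytes summed to 14 UMIs in WT and 161 in mgR members, those of innate lymphoid and NK cells to 7 and 55, of plasmacytoid dendritic cells to 28 and 84, of endothelial cells to 2 and 20, of red cells to 33 and 43, and the Langerhans cell genes Cd207, Epcam and Cdh1 to 49 and 289. In mgR, lectin-negative cells held 111 of the 161 monocyte marker UMIs (569 CPM, 1 cell with 64), against 79.8 CPM in lectin-positive cells. They also held 16 of the 23 T cell marker UMIs (82.0 CPM, 1 cell with 12), against 11.2 CPM. Fibroblast markers summed to 8 UMIs in the WT members and 790 UMIs in the mgR members, of which 1 cell held 456. Lectin-positive mgR cells held 787 of these 790 UMIs and 515 of the 548 macrophage marker UMIs. Of the 14 macrophage markers, 6 were at 0 in WT and 2 in mgR members, and their sum ranged from 0 to 13 UMIs per WT cell and from 0 to 131 UMIs per mgR cell.

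The WT matrix held 1104 barcodes and the mgR matrix 3802, with 5381844 and 28215539 UMIs. The members had a median of 7955.5 UMIs in WT (range 3382 to 13293) and 10751 UMIs in mgR (range 2630 to 23437). Although the methods name male mice, both libraries held cells with Xist UMIs alone and cells with Y-linked UMIs alone, so each library held cells of more than 1 animal, and cells could not be assigned to animals. Among the members 11 WT and 43 mgR cells held Xist alone and 9 WT and 22 mgR cells held Y-linked UMIs alone. The libraries shared 2 barcodes, none of them among the kept cells. Scrublet marked 0 WT and 2 mgR members as possible doublets.

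Ccl22 and Ccl17, ligands of the same receptor, are neighbours on chromosome 8 of GRCm38, where Ccl22 (ENSMUSG00000031779) spans chr8:94745590-94751699 and Ccl17 (ENSMUSG00000031780) spans chr8:94810453-94812036, both on the plus strand with their starts 64.9 kb apart. Fscn1 (ENSMUSG00000029581) spans chr5:142960343-142973185 on the plus strand, and Ccr7 (ENSMUSG00000037944) spans chr11:99144196-99155077 on the minus strand. The stretches before the starts of Ccl22, Ccl17 and Fscn1, taken from RefSeq on GRCm38.p6, are shown because these genes are markers of the members. Of them, Ccl22 and Fscn1 were also part of the rule. The stretches were searched on both strands for the kB motif of NF-kB, a STAT motif (TTCNNNGAA) and the interferon-response motif ISRE, and matches are in capitals.
Ccl22, chr8:94745434-94745589: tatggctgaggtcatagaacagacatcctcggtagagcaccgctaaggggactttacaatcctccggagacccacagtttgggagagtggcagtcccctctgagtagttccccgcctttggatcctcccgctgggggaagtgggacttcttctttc
Ccl17, chr8:94810203-94810452: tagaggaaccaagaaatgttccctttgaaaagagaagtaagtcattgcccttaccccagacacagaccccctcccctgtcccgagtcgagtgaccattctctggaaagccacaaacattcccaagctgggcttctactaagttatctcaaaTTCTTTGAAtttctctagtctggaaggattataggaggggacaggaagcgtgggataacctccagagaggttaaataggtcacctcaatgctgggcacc
Fscn1, chr5:142960105-142960342: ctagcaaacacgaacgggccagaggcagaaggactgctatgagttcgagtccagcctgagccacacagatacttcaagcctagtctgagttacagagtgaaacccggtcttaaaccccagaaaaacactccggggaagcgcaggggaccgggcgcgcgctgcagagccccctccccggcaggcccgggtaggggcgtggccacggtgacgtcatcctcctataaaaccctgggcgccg
The Ccl17 window held 1 STAT match, 99 bases before the start, and the 3 windows held no other match of the 3 motifs. Of 32851 promoter windows of 250 bases, 0.356% held the kB motif, 7.02% the STAT letters and 2.98% the ISRE.

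The rule genes themselves, whose values chose the members and are given as a description, varied widely from cell to cell. Ccr7 ranged from 1 to 68 UMIs per WT member (median 15) and from 1 to 81 UMIs per mgR member (median 9). Ccl22 ranged from 0 to 119 UMIs in WT (median 1) and from 0 to 176 UMIs in mgR (median 3). A single WT cell held 119 of the 150 Ccl22 UMIs, 29 of the 38 Fscn1 UMIs and 144 of the 316 Ccl17 UMIs of the WT members. Of the members, 11 WT and 21 mgR cells held neither Ccl22 nor Fscn1 and met the rule by Ccr7 alone. Near the threshold, 6 WT and 9 mgR members had a sum of 4 or 5 UMIs, and 2 WT and 5 mgR cells missed the rule with a sum of 3. The C1q limit alone kept out 2 WT and 17 mgR cells.

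**Figure D1:**
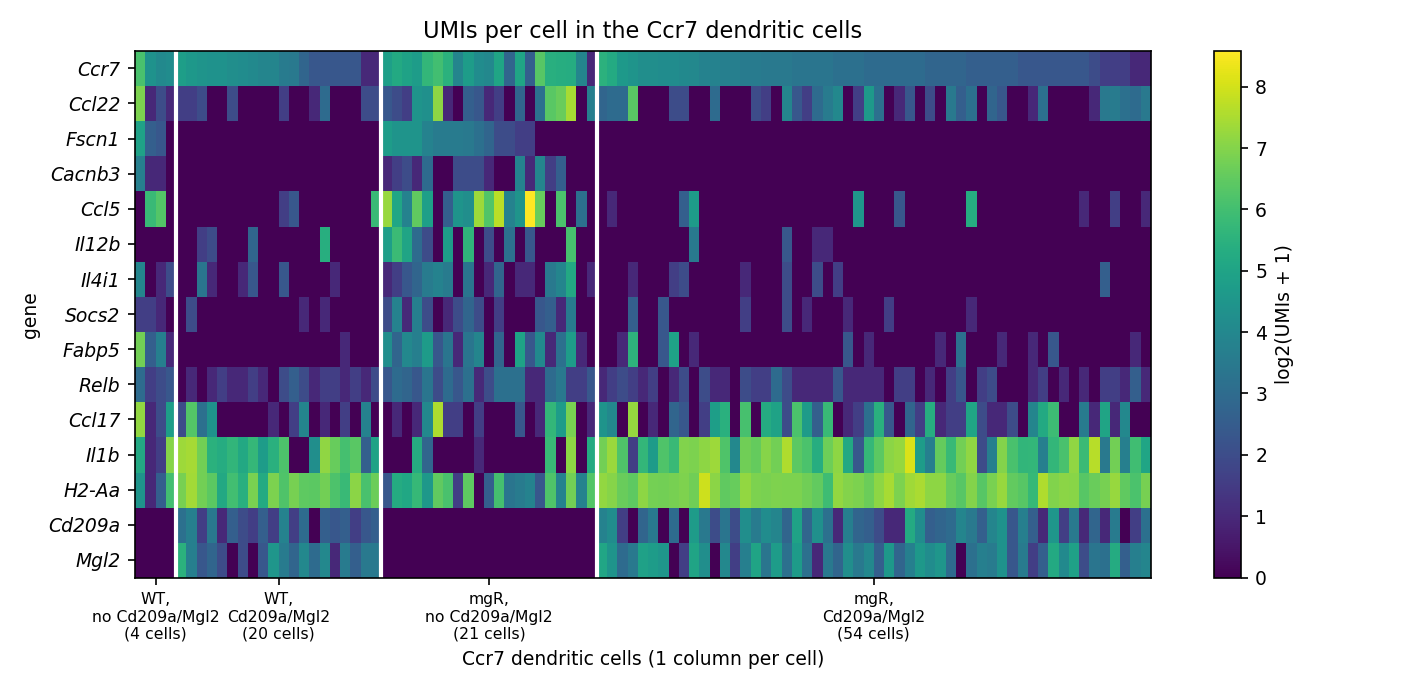
UMIs of 15 genes (rows) in each of the 99 Ccr7 dendritic cells (columns), as log2(UMIs + 1), with the cells grouped by library and by whether they held Cd209a or Mgl2 UMIs. Fscn1 and Cacnb3 appear in lectin-negative cells alone, Ccl5 mostly there, and H2-Aa and Il1b are highest in the lectin-positive cells.

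Members made up 2.74% of the kept WT cells (24 of 875; exact 95% interval 1.77 to 4.05) and 2.18% of the kept mgR cells (75 of 3438; 1.72 to 2.73). The share was 0.561 percentage points lower in mgR, with an interval of -1.95 to 0.558 points that includes 0. Among the dendritic cells (members, cells with at least 2 Cd209a UMIs and no Ccr7, and cells with at least 2 UMIs of Xcr1 or Clec9a and neither Ccr7 nor Cd209a), the members were 24 of 39 cells in WT and 75 of 137 cells in mgR, a difference of -6.79 points (-24.2 to 12.1). Lectin-negative cells were 16.7% of the WT members (4.74 to 37.4) and 28.0% of the mgR members (18.2 to 39.6), and the interval of that difference, -11.6 to 27.9 points, also included 0. Most Cd209a cells carried Ccr7. Of the cells with at least 2 Cd209a UMIs that met the other exclusions, 21 of 28 in WT and 53 of 71 in mgR held a Ccr7 UMI.

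Cacnb3 and Ccl5 were higher in the lectin-negative than in the lectin-positive members. Cacnb3, which encodes a calcium channel subunit abundant in mature dendritic cells, was found in 3 of 4 WT and 14 of 21 mgR lectin-negative cells and in 0 of 74 lectin-positive cells. Its level was 401 CPM in WT and 302 CPM in mgR, at least 4.50 and 5.98 log2 units above the floor of 3 UMIs over the summed lectin-positive cells, and 1 WT cell held 12 of the 14 WT UMIs. Ccl5, a chemokine for T cells and monocytes, stood at 3809 CPM in lectin-negative and 360.0 CPM in lectin-positive WT cells, a ratio of 10.6 (95% interval 7.76 to 14.6). In mgR the corresponding levels were 7143 and 159.6 CPM, a ratio of 44.8 (95% interval 36.5 to 55.4). Ccl5 UMIs varied from cell to cell within the lectin-negative set as well. They ranged from 0 to 77 UMIs over the 4 WT cells, 2 of which held none, and from 0 to 383 UMIs (median 21) over the 21 mgR cells, and of the lectin-positive cells 3 of 20 in WT and 9 of 54 in mgR held any.

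Few members reached 10 UMIs of both Ccl5 and Ccl17. At least 10 UMIs of Ccl5 were counted in 3 WT and 18 mgR members (12.5% and 24%). At least 10 UMIs of Ccl17 were counted in 6 WT and 25 mgR members (25% and 33.3%), and 0 WT and 3 mgR members reached both. Whether this overlap was smaller than these shares alone would give was not tested. The mgR cell with the most Ccl17, 183 UMIs, held 138 UMIs of Ccl22 and none of Ccl5, and the WT cell with the most Ccl17, 144 UMIs, likewise held none of Ccl5. Ccl22 and Ccl17 reached 10 UMIs together in 1 WT and 8 mgR members, of the 1 and 16 that reached 10 UMIs of Ccl22. Ccl17 was not a lectin-negative gene: 41 of 54 lectin-positive mgR cells held it, and the lectin-negative to lectin-positive ratio was 1.47 (95% interval 1.30 to 1.65) in mgR and 6.02 (95% interval 4.80 to 7.57) in WT, where 1 cell held 82.3% of the lectin-negative UMIs.

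Set against other cells of the valve, Ccl17 was higher in the Ccr7 and Cd209a dendritic cells. Ccl17, which the rule did not use, was at 1546 CPM in WT and 1560 CPM in mgR members, and at 429 and 1199 CPM in the Cd209a cells without Ccr7. Cells with Xcr1 or Clec9a held 0 and 60.4 CPM, C1q macrophages 0.728 and 29.0 CPM, and T cells 4.98 and 0 CPM. Ccl5 had a further source, since T cells stood at 1494 and 804 CPM and C1q macrophages at 549 and 134 CPM. Il12b, which encodes the shared p40 subunit of the cytokines IL-12 and IL-23, was found in 4 WT and 15 mgR members, and its level in C1q macrophages was 7.28 CPM in WT and 6.75 CPM in mgR. No Il12b UMI was counted in the Cd209a cells without Ccr7, the Xcr1 or Clec9a cells without Ccr7 or the T cells of either library. Outside these sets, 7 mgR cells held Xcr1 or Clec9a and otherwise met the member rule, and 3 of them held 113 Il12b UMIs.

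**Figure D2:**
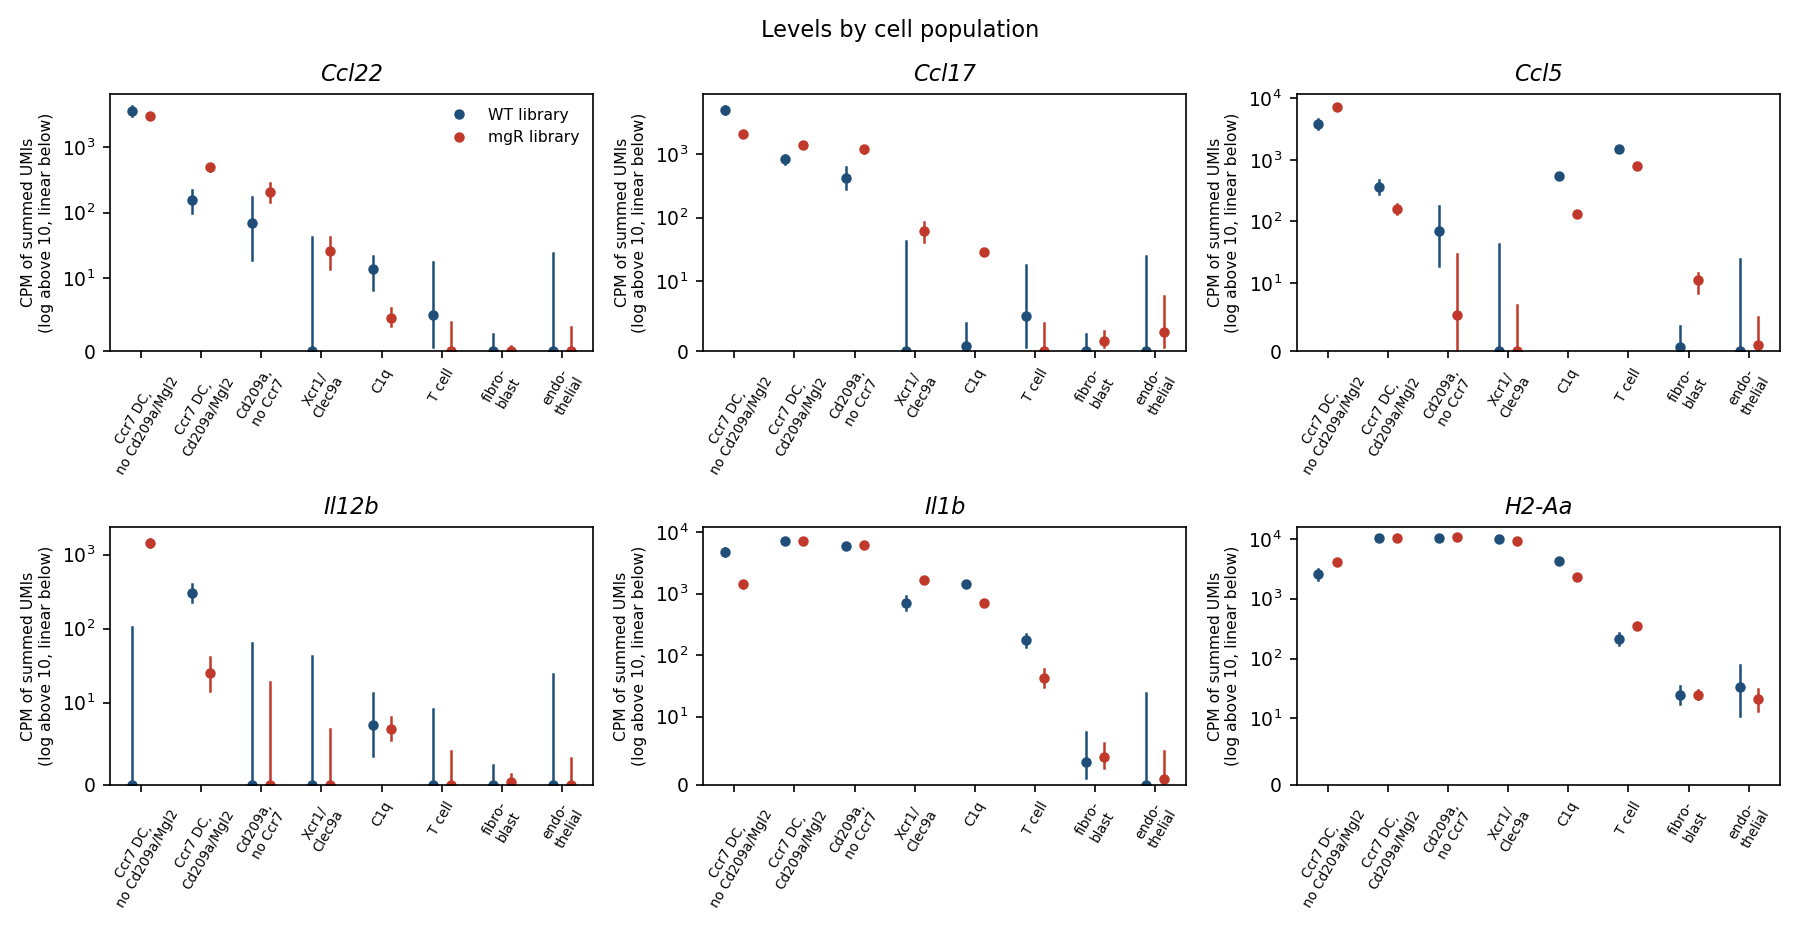
Level of 6 genes (vertical axis, CPM of summed UMIs, logarithmic above 10 and linear below) in 8 cell populations of the WT (blue) and mgR (red) libraries, with exact Poisson 95% intervals for counting error. Ccl17 and Il12b are highest in the Ccr7 dendritic cells (DC), Ccl22 was part of the rule that chose them, Ccl5 is also found in T cells and C1q macrophages, and H2-Aa is similar in the lectin-positive, Cd209a and Xcr1/Clec9a cells.

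Il12b was placed differently in the libraries. In mgR 281 of 297 UMIs lay in lectin-negative cells, 11 of which held the gene, at 1439.8 CPM against 25.5 CPM in the lectin-positive cells. In WT all 52 UMIs lay in 4 lectin-positive cells, 1 of which held 41, and the 4 lectin-negative cells held none. With 4 such cells, a count of 0 allows up to 75% of such cells to hold a UMI of Il12b and a level of up to 85.9 CPM, which limits detection and not expression in a cell.

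Across the genome, 162 of 3535 genes (4.58%) were at least 2-fold higher in the lectin-negative than in the lectin-positive cells in both libraries, and 86 (2.43%) were at least 2-fold lower. These counts are descriptive, since the division was chosen on these cells. The genes named were the 12 of largest ratio each way in mgR with at least 200 CPM in the higher set of both libraries. On the higher side, besides Ccl5 and Cacnb3, they were Irf8, Aldh1a2, Il4i1, Cd63, Anxa3, Tspan3, Serpinb6b, Net1, Cblb and Tmem123. Il4i1, an amino acid oxidase that restrains T cells, stood at 646 against 31.9 CPM in mgR, a ratio of 20.2 (95% interval 12.6 to 34.2), and the WT ratio was 4.37 (95% interval 2.18 to 8.69). Aldh1a2, which makes retinoic acid, came from 1 of 4 WT and 5 of 21 mgR lectin-negative cells. Irf8, a transcription factor best known from the cross-presenting type of dendritic cell, was detected in 21 of 21 lectin-negative and 6 of 54 lectin-positive mgR cells, at 1009 and 12.8 CPM. The mgR cells with Xcr1 or Clec9a stood at 1012 CPM. In WT the 9 Irf8 UMIs of the lectin-negative cells came from 1 cell. Cd63, a tetraspanin of endosomes, was 19.9 (95% interval 13.8 to 29.8) times as high in mgR and 34.0 (95% interval 10.1 to 178) times in WT.

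The genes of largest ratio the other way included Gsn, Ckb, Cybb, Il1r2, Ccr1, Plbd1, Trf, Lyz2, Alox5ap, Ctsc and Ptgs2. Lysozyme (Lyz2) stood at 61.5 CPM in lectin-negative and 584 CPM in lectin-positive mgR cells, a ratio of 0.105 (95% interval 0.0539 to 0.186). The 4 WT lectin-negative cells held no UMI of Lyz2 or Ccr1, against 119 and 36 UMIs in the lectin-positive WT cells. Ccr1 is a receptor for inflammatory chemokines, and Il1r2 is a decoy receptor for interleukin-1. Il1b itself, the interleukin-1 beta gene, was in every lectin-positive mgR cell (2 to 270 UMIs, median 74) and in 6 of 21 lectin-negative mgR cells, a ratio of 0.200 (95% interval 0.177 to 0.226). The WT ratio was 0.661 (95% interval 0.559 to 0.777), with 77.4% of the lectin-negative UMIs in 1 cell.

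Antigen presentation genes differed by class. Of 13 class II and peptide-loading genes with enough UMIs, 6 were at least 2-fold lower in the lectin-negative cells in both libraries (H2-Aa, H2-Ab1, H2-Eb1, Cd74, H2-DMa and H2-DMb1) and none was higher. The list median was -1.56 on the log2 scale in WT and -1.50 in mgR, against 0.19 and -0.10 over all 3535 genes. H2-Aa ranged from 35 to 167 UMIs per lectin-positive WT cell and from 1 to 63 UMIs per lectin-negative WT cell. In mgR it ranged from 53 to 241 and from 0 to 108 UMIs, so the sets overlapped in both libraries. The CPM ratio was 0.246 (95% interval 0.197 to 0.304) in WT and 0.396 (95% interval 0.367 to 0.426) in mgR, and that of the invariant chain gene Cd74 was 0.332 (95% interval 0.296 to 0.370) and 0.353 (95% interval 0.337 to 0.370). Of 15 class I and cross-presentation genes, H2-Q6 and H2-Q7 were at least 2-fold higher and none was lower, with medians of 0.37 in WT and 1.21 in mgR. H2-Q6 and H2-Q7 are near-identical neighbours, so reads can be shared between them and their separate levels are uncertain.

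**Figure D3:**
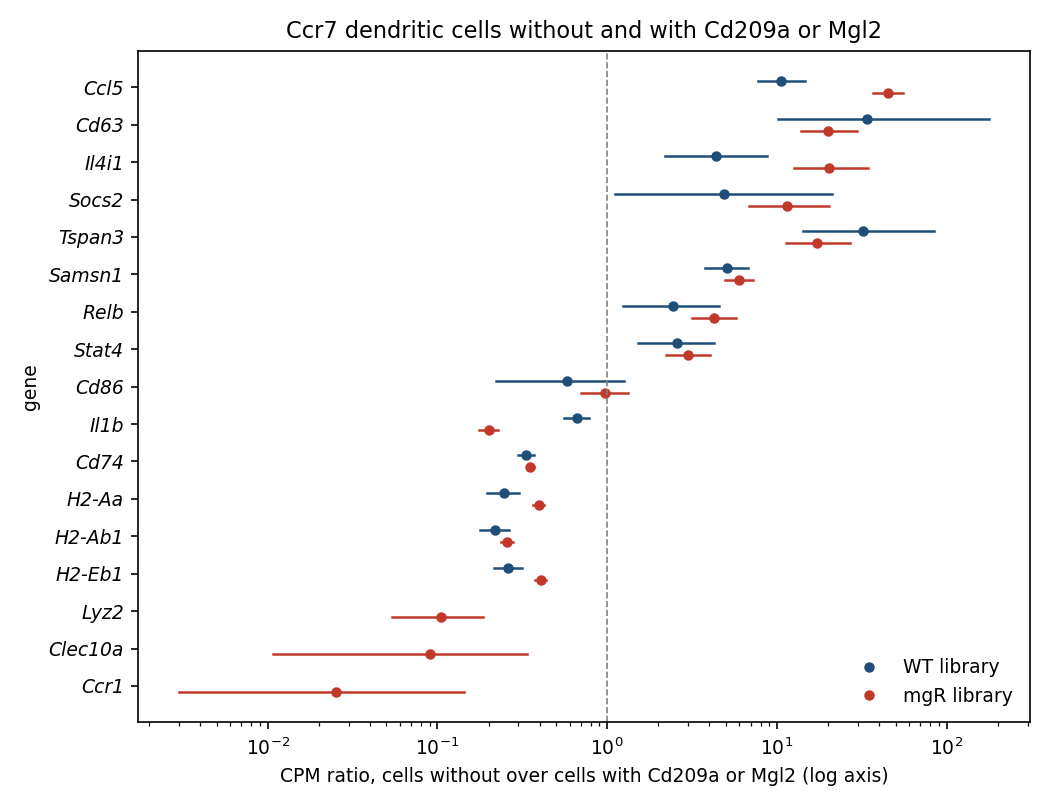
Ratio of CPM in lectin-negative over lectin-positive Ccr7 dendritic cells (horizontal axis, logarithmic) for 17 genes in the WT (blue) and mgR (red) libraries, with exact 95% intervals for counting error and a dashed line at a ratio of 1. Ccl5, Cd63 and Il4i1 lie to the right and class II genes and Lyz2 to the left, and Lyz2, Clec10a and Ccr1 have no WT point because the 4 lectin-negative WT cells held 0 UMIs of them.

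The lists of maturation genes are read against the 4.58% of all genes that were higher and the 2.43% that were lower. Of 20 NF-kB and survival genes, Relb was at least 2-fold higher in the lectin-negative cells in both libraries and Nfkbiz at least 2-fold lower. Relb, a subunit of the alternative NF-kB pathway, was found in every lectin-negative cell, at 458 and 548 CPM against 189 and 129 CPM, with ratios of 2.43 (95% interval 1.24 to 4.55) and 4.24 (95% interval 3.15 to 5.73). Of 9 costimulatory and checkpoint genes, Cd274, the gene of the inhibitory ligand PD-L1, was higher and Havcr2 lower. Cd274 had ratios of 2.02 (95% interval 0.558 to 6.16) in WT and 4.94 (95% interval 2.34 to 10.8) in mgR. Its WT interval included 1. Cd86, a costimulatory ligand for Cd28, had ratios of 0.576 (95% interval 0.222 to 1.26) and 0.974 (95% interval 0.705 to 1.33), and both intervals included 1. Of 9 regulatory enzyme and SOCS genes, Aldh1a2, Il4i1, Socs2 and Stat4 were higher and Ptgs2, which encodes cyclooxygenase-2, was lower. Socs2, a feedback inhibitor of cytokine signaling, had ratios of 4.85 (95% interval 1.12 to 21.1) and 11.5 (95% interval 6.83 to 20.2). Of 24 cytoskeleton and migration genes, Arhgap31, Cacnb3, Rhoc and Samsn1 were higher and none was lower, and Samsn1, an adaptor gene, had ratios of 5.05 (95% interval 3.78 to 6.76) and 5.96 (95% interval 4.96 to 7.18).

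Among the chemokine and receptor genes, Ccl5 was higher and Ccr1 was lower in the lectin-negative cells. Of 15 uptake and pattern recognition genes, Ly75, the endocytic receptor DEC-205, was higher, whereas Cd14, Clec10a, Fcer1g, Fcgr2b and Lyz2 were lower. Ly75 UMIs were counted in 13 of 21 lectin-negative and 1 of 54 lectin-positive mgR cells, and in 3 of 4 and 2 of 20 WT cells. Batf3 and Irf8 were the genes past 2-fold among 16 lineage genes and also among the 6 genes of the cross-presenting type, and both were higher. For both genes the WT values rested on few UMIs. Batf3 had 2 UMIs in lectin-negative and 4 in lectin-positive WT cells, a ratio of 2.43 with an interval (0.219 to 16.9) that included 1. The 9 Irf8 UMIs of the lectin-negative WT cells came from 1 cell. In mgR the Batf3 ratio was 6.25 (interval 3.50 to 11.5). Among 13 genes of the Cd209a type, Cfp, Clec10a and Il1r2 were lower, and Cd209a and Mgl2 themselves defined the sets and are not counted. Among 13 cytokine and receptor genes, Il1r2 and Tgfb1 were lower. Among the interferon-stimulated genes Ifitm3 was lower, and of 16 dissociation stress genes Fosb was lower. None of 8 integrin, 10 mTOR and 6 cell cycle genes passed 2-fold in both libraries, and of 9 TGF-beta genes Tgfb1 was lower.

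Against the Cd209a cells without Ccr7 (7 WT and 18 mgR cells), fewer genes of the members as a whole stood apart. Of 4079 genes, 30 (0.735%) were at least 2-fold higher in the members in both libraries and 33 (0.809%) at least 2-fold lower, in a comparison that the 7 WT cells made imprecise. Of the higher genes, 10 reached 200 CPM in both libraries, and they were Ccl5, Fabp5, Il12b, Tspan3, Tbc1d4, Iscu, Rgs1, Pkib, Relb and Samsn1. Fabp5, a fatty acid carrier, was at 612 CPM in WT members and 0 UMIs in the 7 Cd209a cells, with 84.8% of the WT UMIs in 1 cell, and at 374 against 15.7 CPM in mgR, a ratio of 23.8 (95% interval 8.06 to 116). Tbc1d4, a regulator of vesicle transport, had ratios of 11.1 (95% interval 4.66 to 34.5) in WT and 4.98 (95% interval 3.41 to 7.56) in mgR. Relb had ratios of 2.74 (95% interval 1.10 to 8.82) and 2.30 (95% interval 1.43 to 3.91). Cxcl2, a neutrophil chemokine, and Eps8 were the 2 genes at 200 CPM in the Cd209a cells that were lower in the members, Cxcl2 with ratios of 0.116 (95% interval 0.0761 to 0.174) and 0.324 (95% interval 0.280 to 0.376). In WT, 1 Cd209a cell held 89.5% of the Cxcl2 UMIs of its set.

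In the same comparison, 13 genes of the lists passed 2-fold in both libraries. Higher in the members were Ccl5 among 12 chemokine genes, Birc2 and Relb among 20 NF-kB genes, Il12b among 15 cytokine genes, Aldh1a2 and Il4i1 among 9 regulatory genes, Samsn1 among 24 cytoskeleton genes, Kit among 16 lineage genes and Ddit4 among 12 mTOR genes. Lower were Cxcl2 and the monocyte chemokine receptor gene Ccr2 among the chemokine genes, Il18 among the cytokine genes and Ccr2 and Cd300a among 15 genes of the Cd209a type. None of 14 class II, 18 class I, 18 uptake, 10 costimulatory, 9 integrin, 10 TGF-beta, 4 interferon-stimulated, 8 cell cycle, 6 cross-presenting and 17 dissociation stress genes passed. H2-Aa had ratios of 0.897 (95% interval 0.817 to 0.985) in WT and 0.818 (95% interval 0.779 to 0.860) in mgR.

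Between genotypes, the genes that chose the members are given as a description, over all members and within each sex-linked class. Ccr7 was at 1762 CPM in WT and 1413 CPM in mgR members, and Fscn1 at 186 and 206 CPM. The Ccl17 ratio of mgR over WT was 1.01 (95% interval 0.891 to 1.14), and that of Ccl22 was 1.47 (95% interval 1.24 to 1.76), with 1 WT cell holding 79.3% of the WT Ccl22 UMIs. Within the cells with Xist alone the Ccl22 ratio was 6.60 (600 mgR and 19 WT UMIs), and within those with Y-linked UMIs alone it was 5.04 (95% interval 2.59 to 11.2). The Ccl17 ratios in these classes were 1.03 (95% interval 0.872 to 1.23) and 11.8 (95% interval 5.67 to 29.7). Fscn1 had 45 mgR and 0 WT UMIs in the Xist cells and a ratio of 1.72 (95% interval 0.843 to 3.97) in the Y-linked cells. The ratio of Ccl17 turned with the set, since it was 1.69 (95% interval 1.41 to 2.03) among the lectin-positive and 0.411 (95% interval 0.343 to 0.494) among the lectin-negative cells. Ccl5 was 1.92 (95% interval 1.65 to 2.24) times as high in mgR over all members, 1.88 (95% interval 1.57 to 2.26) among the lectin-negative cells and 0.443 (95% interval 0.319 to 0.620) among the lectin-positive ones. In the Xist cells Ccl5 had 745 mgR UMIs and 0 WT UMIs, whereas in the Y-linked cells the ratio was 0.956 (95% interval 0.789 to 1.16). Of the lectin-positive WT UMIs of Ccl5, 90.2% came from 1 cell. H2-Aa and Relb had ratios of 0.960 (95% interval 0.912 to 1.01) and 0.974 (95% interval 0.706 to 1.37).

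Of 4616 genes, 338 (7.32%) were at least 2-fold higher in mgR members and 206 (4.46%) at least 2-fold lower, and within the lectin-positive cells alone these were 303 (7.72%) and 174 (4.43%) of 3925 genes. Genes with 150 CPM in the higher library, found in at least 25% of its members and shifted the same way in the mean per cell, were ranked, and the first 6 each way are given. Higher in mgR were Tubb5, Apoe, AW112010, Irf8, Isg15 and Atf3. Tubb5, a tubulin gene, was at 24.5 CPM in WT (5 UMIs) and 325 CPM in mgR (267 UMIs), a ratio of 13.3 (95% interval 5.62 to 41.2). The Tubb5 ratio was 14.8 in the Xcr1 or Clec9a cells (on 2 WT UMIs) and 2.04 (95% interval 1.58 to 2.67) in the T cells. It was 0.754 in the Cd209a cells without Ccr7 and 1.16 over all kept cells. The interferon-induced gene Isg15 had a ratio of 4.97 (95% interval 2.56 to 11.1) in the members, 6.02 in the Xcr1 or Clec9a cells (on 1 WT UMI) and 2.84 in the T cells, but 0.542 in the C1q macrophages and 0.882 over all kept cells. Irf8 had a ratio of 5.66 (95% interval 2.93 to 12.6), and 197 of its 205 mgR UMIs lay in lectin-negative cells, where the ratio was 3.92 (95% interval 2.02 to 8.69). AW112010 had a ratio of 6.05 (95% interval 3.13 to 13.4) over all members, 7.48 (95% interval 3.15 to 23.3) among lectin-negative and 0.676 (95% interval 0.195 to 2.95) among lectin-positive cells.

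Apoe, abundant in macrophages and fibroblasts of the valve, was at 332 CPM in mgR and 29.4 CPM in WT members, and 1 mgR cell held 44.3% of the mgR UMIs. Apoe stood at 18903 CPM in mgR and 18616 CPM in WT C1q macrophages. Its mgR over WT ratio was 6.54 in the T cells, and in the other dendritic populations it was 2.75 (Cd209a, on 2 WT UMIs) and 2.75 (Xcr1 or Clec9a, on 3 WT UMIs). Without the 2 mgR members marked by Scrublet its log2 ratio was 1.46 in place of 3.50. The part of macrophage and fibroblast RNA in this ratio was not tested. Mgp and Dcn, fibroblast genes named here after their values were seen, also stood out in the plot of all genes, with 1330 and 635 UMIs in mgR and 10 and 5 UMIs in WT members. These counts need not reflect the mgR members at large. Dcn is 1 of the 7 fibroblast markers, whose 790 UMIs in mgR members lay in few cells. A single cell held 456 of them, and 3 cells held 5 or more.

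Lower in mgR were AY036118, Havcr2, D16Ertd472e, Ier3, Wnt11 and Lrrc8d. AY036118, a transcript that overlaps ribosomal RNA sequence, was at 3034 CPM in WT and 641 CPM in mgR members, a ratio of 0.211 (95% interval 0.188 to 0.238), and at a ratio of 0.208 over all kept cells, so the library as a whole carried the same difference. Havcr2, the gene of the inhibitory receptor TIM-3, was at 294 CPM in WT and 81.5 CPM in mgR, a ratio of 0.278 (95% interval 0.193 to 0.400), against 0.640 in the Xcr1 or Clec9a cells and 0.615 in the C1q macrophages. Ier3, an early response gene, had a ratio of 0.343 (95% interval 0.264 to 0.446) in the members and 1.34 over all kept cells. Wnt11, which encodes a secreted Wnt ligand, was at 279 and 102 CPM, a ratio of 0.366 (95% interval 0.259 to 0.522), and Wnt11 was also lower over all kept cells (0.329), in the C1q macrophages (0.361) and in the fibroblasts (0.495), against 0.805 in the Cd209a cells without Ccr7. The differences between populations in these ratios were not tested.

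**Figure D4:**
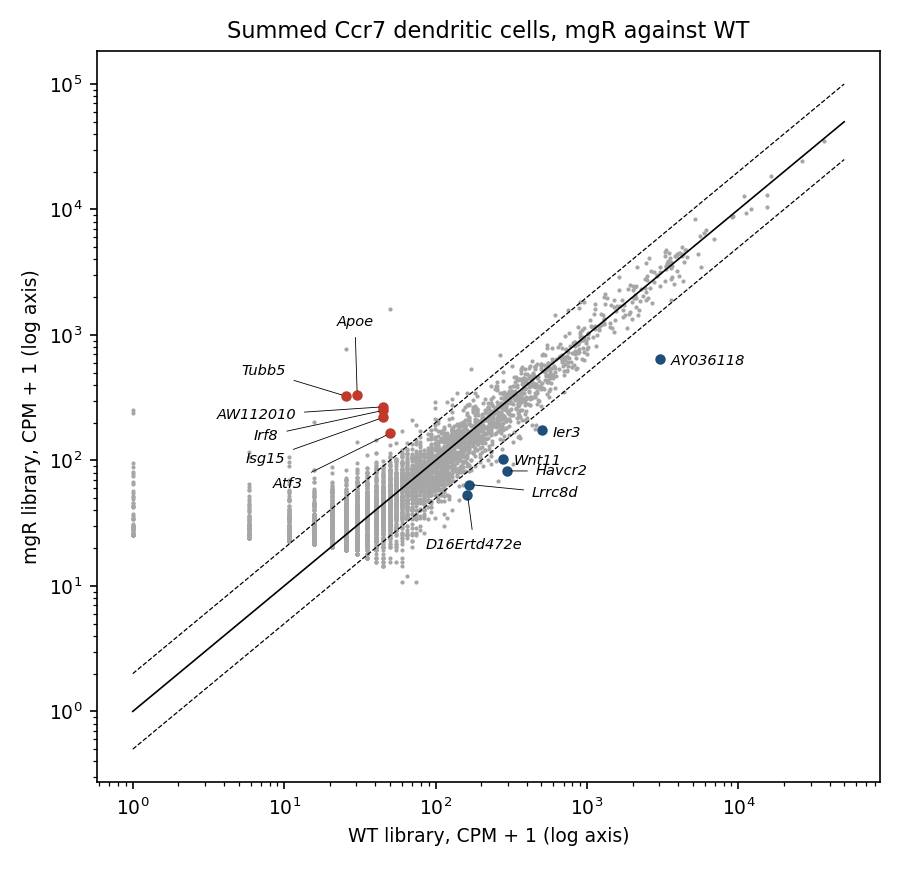
CPM + 1 of 4616 genes in the summed Ccr7 dendritic cells of the WT library (horizontal axis, logarithmic) and the mgR library (vertical axis, logarithmic), with lines at equal level (solid) and at 2-fold (dashed). The 12 named genes are labelled, 6 above and 6 below the 2-fold lines, and the unlabelled points far above the upper line include Mgp and Dcn.

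**Figure D5:**
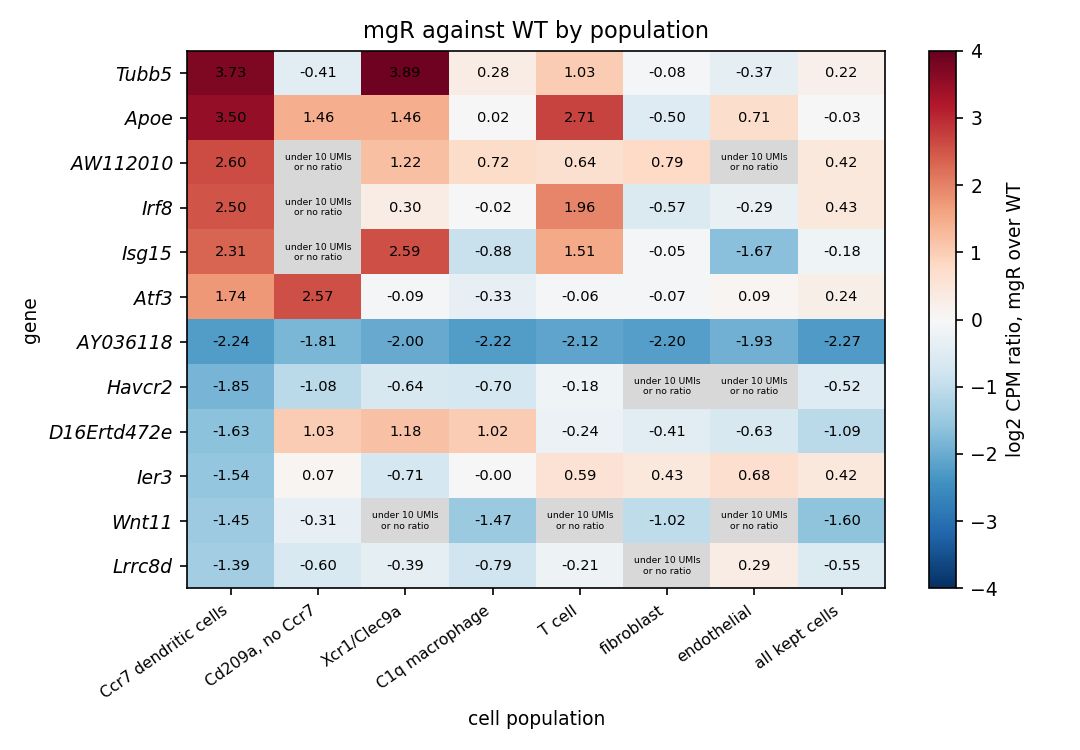
Log2 CPM ratio of mgR over WT for the 12 named genes (rows) in the Ccr7 dendritic cells, the other cell populations and all kept cells (columns), with grey boxes where fewer than 10 UMIs or no ratio was available. AY036118 is about equally lower in every column, and Tubb5 is higher in the Ccr7 dendritic cells, the Xcr1/Clec9a cells and, by less, the T cells.

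By list, read against the 7.32% of all genes that were higher in mgR and the 4.46% that were lower, 3 of 13 chemokine genes were at least 2-fold higher in mgR members and none lower, namely the inflammatory chemokines Ccl3, Ccl4 and Cxcl2. Ccl4 had 166 mgR and 3 WT UMIs, a ratio of 13.8 (95% interval 4.63 to 67.4), and Cxcl2 had a ratio of 3.10 (95% interval 2.20 to 4.52). Of 10 cell cycle genes, Hmgb2, Mki67, Stmn1 and Top2a were higher. Their mgR UMIs lay mostly in lectin-positive cells, with 168 of 171 Stmn1 UMIs and 86 of 94 Mki67 UMIs there. Those cells held 626626 of all 821795 UMIs of the mgR members. Mki67, a marker of proliferating cells, stood at 114 CPM in 23 mgR members and at 39.1 CPM in 5 WT members, and 1 mgR cell held 17.0% of the mgR UMIs. Of 7 interferon-stimulated genes, Gbp2, Isg15 and Stat2 were higher and none was lower, Gbp2 and Stat2 on 2 WT UMIs each. The list median was 0.82 on the log2 scale against 0.03 over all 4616 genes. Of 19 class I genes, Psme2 and Tap1 were higher, and of 14 class II genes Ciita was higher. Of 14 costimulatory genes, Cd200 and Tnfrsf4 were higher and Cd274, Havcr2 and Pvr were lower. Cd274 was at 83.2 CPM in WT and 40.2 CPM in mgR, a ratio of 0.483 (95% interval 0.261 to 0.924).

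No gene of the 20 NF-kB genes and none of the 10 integrin genes passed 2-fold between genotypes. Itgb1, the common beta-1 integrin subunit, had a ratio of 1.16 (95% interval 0.872 to 1.56). Of 11 TGF-beta genes, the receptor genes Tgfbr1 and Tgfbr2 were higher, on 3 and 2 WT UMIs, and Smad7, an inhibitor of the pathway, was lower with a ratio of 0.411 (95% interval 0.239 to 0.722). Tgfb1 had a ratio of 1.10 (95% interval 0.779 to 1.58). Of 14 mTOR genes, Eif4ebp1 was higher and Pik3ca, Sesn2 and Slc7a5 were lower, and Mtor itself had 3 WT and 9 mgR UMIs, too few to place. Of 17 cytokine genes, Il6 and Tnf were higher and Il21r was lower, Tnf on 30 mgR and 3 WT UMIs, a ratio of 2.49 (95% interval 0.773 to 12.7). Socs2 was higher and Ptgs2 lower among 9 regulatory genes, Batf3 and Irf8 were higher among 16 lineage genes and 7 cross-presenting genes, and Cdc42ep3, Rhoc and Tuba1a were higher among 25 cytoskeleton genes. Fcgr3 was higher and Clec10a lower among 18 uptake genes, Clec10a was lower among 15 genes of the Cd209a type, and of 18 dissociation stress genes Atf3, Egr1 and Klf2 were higher and Fos and Ier3 lower.

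The signals that Ccr7 dendritic cells exchange with other cells could be read from the same matrices. Ccl19, a ligand of Ccr7, was counted in 194 of 286 WT and 490 of 773 mgR fibroblasts, at 463 and 377 CPM, and at 0 and 4 UMIs in the members. Ccl21a UMIs were counted in 6 of 194 mgR endothelial cells (650 UMIs) and in none of the 33 WT endothelial cells, where a count of 0 allows up to 9.09% of cells with a UMI and does not limit the share that expresses the gene. Each of these symbols is carried by 2 identifiers, ENSMUSG00000071005 and ENSMUSG00000094686 held the UMIs given here, and reads of near-identical copies cannot be told apart. Ccr4, the receptor of Ccl17 and Ccl22, was counted in 3 of 90 WT and 16 of 152 mgR T cells. Cd40lg, which activates dendritic cells through Cd40, was in 12 WT and 48 mgR T cells, at 42.3 and 105 CPM, and Icos, a receptor for the dendritic cell ligand Icosl, was at 628 and 755 CPM. Pdcd1, the receptor of PD-L1, was at 652 CPM in WT and 228 CPM in mgR T cells, and Cd28 and Ctla4, receptors of Cd80 and Cd86, were at 57.3 and 22.4 CPM in WT and 93.6 and 14.3 CPM in mgR T cells. Il2 had 2 UMIs in the T cells of each library.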

How the data were processed

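Single-cell 3′ RNA libraries of mitral valve cells, 1 per genotype, were deposited by the authors as raw UMI counts per gene and cell, made with Cell Ranger 7.1.0 on mm10 per the labels and methods. The counts were used as deposited (32285 features per matrix), with Python 3.11.15, scipy 1.17.1 and scanpy 1.11.5. UMIs were summed over the cells of a population and divided by their total (CPM). Ratios carry exact conditional binomial 95% intervals, levels Poisson and shares Clopper-Pearson intervals, all for counting error only. A ratio entered the counts past 2-fold with at least 5 UMIs in WT and 20 in mgR over both populations, or 20 over both genotypes. A count of 0 was bounded by 3 counts. C1q macrophages, T cells, fibroblasts and endothelial cells were taken by marker UMIs. Calculations were tested on simulated data. The members and the 18 gene lists were chosen with earlier results of these data known. Named genes against the Cd209a cells were those past 2-fold in both libraries with 200 CPM, ranked in mgR, and those between genotypes the first 6 each way with 150 CPM, detection in 25% of members and the same direction in the mean per cell. Mitochondrial, ribosomal protein, haemoglobin, predicted, sex-linked and rule genes were left out of this ranking. Positions are from GENCODE vM21 on GRCm38, and promoter windows for 3 of 6 genes (Ccl22, Ccl17 and Fscn1, not Ccr7, Ccl5 and Relb) from RefSeq. In 12 alternative settings the analysis was repeated with other filters, rule limits, depths and weightings, or in the cells of 1 sex-linked class. Some genes that met these rules are not reported here.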

Additional observations from a re-analysis of the deposited data

Results flagged for a closer look

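The genotype difference in the share of Ccr7 dendritic cells was negative in 1 sex-linked class and had an interval that included 0 in the other. Among cells with Xist UMIs alone, members were 11 of 246 in WT and 43 of 2091 in mgR, a difference of -2.42 percentage points (95% interval -5.85 to -0.0877). Among cells with Y-linked UMIs alone they were 9 of 337 and 22 of 724, a difference of 0.368 points (-2.23 to 2.47). The difference between these 2 values was not tested, and with 1 library per genotype the animals behind it could not be told apart.

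Outside the members, 7 mgR cells met every part of the rule except that they held Xcr1 or Clec9a UMIs. They carried 83 UMIs of Ccr7, 47 of Ccl22 (in 6 cells), 469 of Ccl5 (in 2 cells) and 113 of Il12b (in 3 cells). Fscn1 was found in 1 of the 7 cells and Cacnb3 in 2. In WT, 1 cell met the rule in the same way.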

How the results depend on the processing

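No paired analysis was possible because each genotype gave 1 library. Of the main values under the alternatives, 55 stayed within 1.5 times or within their interval and 23 did not. The 30 genes higher than in the Cd209a cells became 8 after thinning to 2000 UMIs, 8 in Xist cells, 17 in Y-linked cells and 144 in the lectin-negative members. The 33 lower genes became 8, 18, 12 and 88, and 10 with at least 40 UMIs per gene. The 13 list genes became 4, 4, 6 and 44, and 8 in the lectin-positive members. The 338 genes higher in mgR became 112 when thinned, 167 in Y-linked cells, 198 with at least 40 UMIs and 141 in the lectin-negative members, and the 206 lower genes became 75, 128, 75 and 92. Fewer genes entered these counts, so a lower count need not be a lower share of the genes compared. When thinned, 112 of 1321 genes were higher in mgR and 75 lower, against 338 and 206 of 4616. The share difference was -2.42 points in Xist cells. The direction turned for AW112010 (log2 ratio -0.56 in lectin-positive members) and for Cxcl2 against mgR Cd209a cells (4.67 in Y-linked cells), and the cause was not tested. The alternatives on lectin-positive and lectin-negative members and on the top cell were chosen after seeing the data. Depth limited genes at a few UMIs, above all over the 4 lectin-negative WT cells.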
